A study of Mus musculus with 23 samples.

Results

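All 23 heart libraries of the series were divided by the identification number in their labels, 11 with ID 1 to 12 and 12 with ID 19 to 30, and compared with genotype as a term. The labels do not say what the numbers stand for, whether litters, dissections or library preparation, so the sets are called here by their numbers only. Each set held every genotype. Wild type and haploinsufficient hearts each gave 4 libraries to either set, and the triple knockout gave 3 with ID 1 to 12 and 4 with ID 19 to 30. The division used no measured value, so every gene could be tested, and 13942 of 23454 genes had enough counts for it.

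RNA came from whole mouse hearts at embryonic day 13.5, a stage at which the chambers are in place and the valves and septa are still forming. The study concerns heart defects in mice that lack GRK2, GRK5 and GRK6, kinases that switch off G-protein coupled receptors. Ribosomal RNA was removed before sequencing, and the libraries do not keep the strand, so a gene and an antisense partner cannot be told apart. All hearts carry the C57BL/6 strain label. Wild-type hearts had GRK2, GRK5 and GRK6 unaltered and no Cre. Haploinsufficient hearts were GRK2 fl/wt, GRK5 fl/fl and GRK6 KO/KO with Nkx2.5Cre, and triple-knockout hearts were GRK2 fl/fl, GRK5 fl/fl and GRK6 KO/KO with Nkx2.5Cre. The driver expresses Cre in the cardiac lineage, so other cells of these hearts keep the floxed genes. Whether each library came from its own embryo is not given, so a p-value here reflects how far these libraries scatter, and that scatter may be technical.

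Several kinds of RNA that meet in this comparison are made and processed apart from ordinary mRNA. Mitochondria transcribe their own short genome as long precursors, which are cut at the embedded transfer RNAs into the messengers of the respiratory chain, the ribosomal RNAs and the transfer RNAs. Small nucleolar RNAs are cut out of introns of host genes and guide chemical changes of ribosomal RNA, and Cajal body RNAs do the same for spliceosomal RNA. In a library made from total RNA such short RNAs are caught only in part.

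The labelled tissue was present in both sets. Tnnt2, the heart troponin T, ran from 1907 to 3435 CPM (counts scaled to a common library size, with TMM factors) with ID 1 to 12 and from 1813 to 3837 with ID 19 to 30. Myh6, Myh7 and Actc1 were likewise high in every library, and the summed exons of Nkx2-5 lay between 41.3 and 114 CPM with ID 1 to 12 and between 26.5 and 104 CPM with ID 19 to 30. Total counts ran from 1757257 to 13864731 (median 4543736) and from 4434317 to 14050559 (median 7075401). A count of 0 allows a level of up to 3 counts, which is 0.214 CPM in the deepest and 1.71 CPM in the shallowest library before TMM factors, counting error only. Libraries with more Xist than Y-linked counts numbered 2 of 4 and 3 of 4 in wild type, 2 of 4 and 3 of 4 in the haploinsufficient group, and 1 of 3 and 2 of 4 in the triple knockout. On principal components of log2 CPM the sets did not separate on the first axis, which held 17.1% of the variance and of which the set accounted for 0.295%. The set accounted for the most on the fifth axis, 22.1% of its 6.59%. Haploinsufficient replicates 2, 4 and 6 each stood apart on an axis of the first 4, and wild-type replicate 2 stood apart in the number of genes detected. Results below are given without them where they change.

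Across the genotypes few genes passed the test for a difference between the sets, and some of these differed strongly. Small differences, or those that oppose each other between genotypes, can be missed by this test. Tmem38b, which carries a copy of the 5S ribosomal RNA gene in its last exon, was far higher with ID 19 to 30, and Eln, the gene of elastin, was higher as well. Messengers of the mitochondrial genome were lower with ID 19 to 30, with the mitochondrial transfer RNA mt-Td lowest of all. With edgeR's quasi-likelihood test and a Benjamini-Hochberg adjusted p under 0.05, 27 of 13942 genes were called (0.194%), 19 higher (0.136%) and 8 lower (0.0574%) with ID 19 to 30. At least 0.5 on the log2 scale was reached by 11 of them (0.0789%). At an unadjusted p under 0.05 there were 1197 genes (8.59%), 641 higher (4.6%) and 556 lower (3.99%). Of the 27 genes, 24 had the same sign of difference in all 3 genotypes. Choosing genes by their difference across genotypes favours equal signs, so this count is no separate evidence. The exceptions were the mitochondrial RNAs mt-Td, mt-Nd5 and mt-Cytb, at 0.50, 0.09 and 0.17 log2 in the triple knockout and negative in the other genotypes.

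The number of calls rested on individual libraries and on scaling. Tmem38b had an adjusted p of 0.0154, and the other 26 genes lay between 0.0376 and 0.0488, just inside the threshold. Of 23 fits with 1 library left out, 6 stayed within 1.5 times the count. No gene was called without wild-type replicate 2 or without haploinsufficient replicate 7, where 1108 and 1165 genes had an unadjusted p under 0.05. A single gene was called without wild-type replicate 1, 5, 6, 7 or 8 or haploinsufficient replicate 1, 5 or 6, and 2 genes without haploinsufficient replicate 2 or triple-knockout replicate 4. Without haploinsufficient replicate 3 there were 7, without replicate 4 there were 12, without wild-type replicate 3 there were 13, without triple-knockout replicate 2 there were 16 and without triple-knockout replicate 3 there were 60. Without the 3 haploinsufficient libraries that stood apart, 3 genes were called, 2 of them among the 27. With log2 total count as a term 0 were called by edgeR, with 1045 at an unadjusted p under 0.05, while DESeq2 without that term called 80 and limma-voom 27. Scaling by the upper quartile gave 6 higher and 6 lower calls, and scaling by total counts alone gave 1 higher and 4 lower. None of the 27 genes changed sign under the alternatives run, 39 for each gene except Psg28, which had 38.

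Tmem38b (mm10, chromosome 4, 53826045 to 53862018, plus strand) encodes TRIC-B, a cation channel of the endoplasmic reticulum. The exon from 53859882 to 53862019 in GENCODE M21 (GRCm38) holds n-R5s185, a 5S ribosomal RNA gene copy of 119 bases at 53860652 to 53860770 on the same strand. The annotation lists 179 other copies, of which 0 are identical to it and 25 lie within 5 base changes, so reads of 5S RNA could be placed here and the count of Tmem38b is uncertain as a measure of its messenger. The level of Tmem38b was 157 CPM at lowest, 936 at the median and 4538 at highest with ID 1 to 12, and 4043, 8631 and 44509 CPM with ID 19 to 30. The sets did not overlap within wild type (157 to 3037 against 8690 to 44509 CPM) or within the triple knockout (313 to 2036 against 4043 to 23176 CPM). In haploinsufficient hearts the highest library with ID 1 to 12, at 4538 CPM, lay just above the lowest with ID 19 to 30, at 4528 CPM. The difference was 3.23 ± 0.52 on the log2 scale (SE, edgeR adjusted p = 0.0154). It passed the test in 36 of 39 alternatives and ran from 2.93 to 3.89. Within a genotype it was 4.01 in wild type (edgeR adjusted p = 0.0393), 2.23 in haploinsufficient (adjusted p = 0.273) and 3.46 in triple-knockout hearts (adjusted p = 0.311). Rn45s, the precursor of the other cytosolic ribosomal RNAs, did not follow it: Rn45s was at 425 ± 279 CPM with ID 1 to 12 and 248 ± 70.1 CPM with ID 19 to 30 (SD, n = 11 and 12, -0.68 log2, edgeR adjusted p = 0.284).

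**Figure D1:**
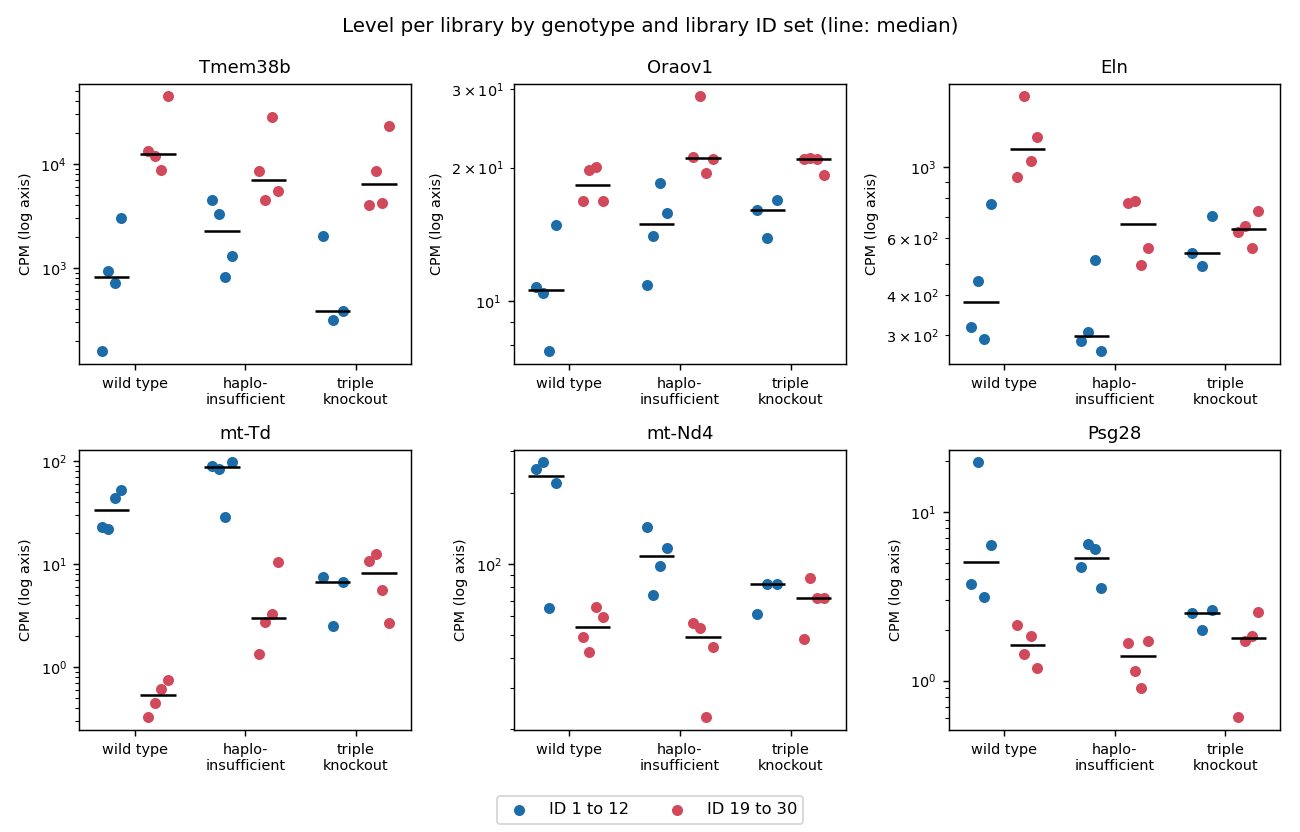
Level in each library (CPM, log axis) of Tmem38b, Oraov1, Eln, mt-Td, mt-Nd4 and Psg28 by genotype, with libraries of ID 1 to 12 in blue and of ID 19 to 30 in red; points are libraries and lines are medians. Tmem38b was higher with ID 19 to 30 in every genotype at the median, while mt-Td was lower in wild type and haploinsufficient hearts and overlapped in the triple knockout.

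Apart from Tmem38b, the genes higher with ID 19 to 30 were protein-coding genes with modest differences. Oraov1, a factor for iron-sulfur proteins and the ribosome, and Dnttip1, a member of a histone deacetylase complex, were the genes in which every library with ID 19 to 30 lay above every library with ID 1 to 12 in each genotype, 2 of 13942 (0.0143%). The reverse was seen for 0 genes (0%). Oraov1 ran from 7.72 to 18.4 CPM (median 14) with ID 1 to 12 and from 16.8 to 28.9 CPM (median 20.5) with ID 19 to 30, with 7.72 to 14.9 against 16.8 to 20.1 in wild type, 10.9 to 18.4 against 19.5 to 28.9 in haploinsufficient and 13.9 to 16.9 against 19.3 to 21 in triple-knockout hearts. The difference was 0.59 ± 0.11 log2 (SE, edgeR adjusted p = 0.0376). Dnttip1 ran from 20 to 28.5 CPM (median 24) and from 26.5 to 45.0 CPM (median 30.7), with a difference of 0.39 ± 0.08 log2 (edgeR adjusted p = 0.0411). For both genes the sets met when the genotypes were pooled, and separated only within each genotype.

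Eln was the gene of the extracellular matrix that differed. It ran from 267 to 766 CPM (median 443) with ID 1 to 12 and from 497 to 1656 CPM (median 749) with ID 19 to 30, with a difference of 0.86 ± 0.18 log2 (SE, edgeR adjusted p = 0.0411). The separation was complete in wild type, at 292 to 766 against 931 to 1656 CPM. In haploinsufficient hearts, replicate 3 at 515 CPM reached into the other set (267 to 515 against 497 to 786 CPM), and in triple-knockout hearts the sets overlapped (491 to 705 against 561 to 728 CPM). Of 25 measured genes of fibrillar and basement membrane matrix, Eln was the 1 called. The laminin gene Lamb1 was at 0.28 ± 0.10 log2 (edgeR adjusted p = 0.333) and the list's median was 0.058, against -0.010 over all genes tested. Of 27 genes of cushion and valve mesenchyme, Eln was again the 1 called, and the list's median was -0.11.

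The other genes that were higher with ID 19 to 30 belong to general cell functions. Fbl encodes fibrillarin, the methyltransferase that works with box C/D small nucleolar RNAs, and ran from 34.3 to 59.5 CPM with ID 1 to 12 and from 53.5 to 99.4 CPM with ID 19 to 30 (0.47 ± 0.09 log2, SE, edgeR adjusted p = 0.0376). Cdc37, which brings kinases to the chaperone Hsp90, ran from 106 to 169 CPM and from 156 to 214 CPM (0.42 log2). Psmd7, a subunit of the proteasome lid, was at 0.48, Polr2e, a subunit shared by the RNA polymerases, at 0.44 and Ptdss2, which makes phosphatidylserine, at 0.57. Nudt16l1, which binds the DNA repair factor 53BP1, was at 0.48, Acaa1a, the peroxisomal thiolase, at 0.47, the signalling adaptor Sh2b1 at 0.40 and the endoplasmic reticulum lectin gene Lman2l at 0.38. Their edgeR adjusted p lay between 0.0376 and 0.0423. Chosen after their values were seen, the remaining higher genes were Yars, the tyrosyl-tRNA synthetase (0.39), Wbscr16 (0.38), the ribosome assembly gene Kri1 (0.38), Pmpca, part of the mitochondrial processing peptidase (0.34), D4Wsu53e (0.32) and the aminopeptidase gene Xpnpep1 (0.31).

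Of the genes that were lower with ID 19 to 30, 3 are encoded in the nucleus. Stt3a, a catalytic subunit of the enzyme that attaches sugar chains to new proteins, ran from 40.1 to 80.5 CPM with ID 1 to 12 and from 29.5 to 61.2 CPM with ID 19 to 30 (-0.46 ± 0.10 log2, SE, edgeR adjusted p = 0.0411). Grk4, a relative of the kinases targeted in this study, ran from 27.4 to 206 CPM (median 38.9) and from 13 to 37.3 CPM (median 25.9), a difference of -1.16 ± 0.24 log2 (edgeR adjusted p = 0.0411). Psg28, a pregnancy-specific glycoprotein gene, ran from 2.00 to 19.7 CPM (median 3.75) and from 0.605 to 2.55 CPM (median 1.69), with -1.65 ± 0.33 log2 (edgeR adjusted p = 0.0411). Wild-type replicate 2 held the highest value of both, 206 CPM for Grk4 and 19.7 CPM for Psg28, and it was also the library with the most genes detected, 17850 after all libraries were thinned to the same total, against 14408 to 15846 in the others. Without that library no gene was called, Grk4 and Psg28 included. The sets did not overlap for either gene in wild-type or haploinsufficient hearts and overlapped in the triple knockout.

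Messengers of the mitochondrial genome made up 4 of the 8 genes that were lower. All 13 mitochondrial messengers were tested, 0 were called higher and 4 lower (0.0574% of all genes were called lower), and all 13 had a negative difference with an unadjusted p under 0.05. Their median was -0.85 log2, against -0.010 over all genes tested. mt-Nd1, mt-Nd4 and mt-Nd5 encode subunits of complex I, and mt-Cytb encodes cytochrome b of complex III. mt-Nd1 ran from 200 to 986 CPM (median 427) with ID 1 to 12 and from 125 to 355 CPM (median 242) with ID 19 to 30, a difference of -1.03 ± 0.20 log2 (SE, edgeR adjusted p = 0.0376). mt-Nd4 ran from 61.6 to 268 CPM and from 22.5 to 86.9 CPM (-1.17 ± 0.23 log2, edgeR adjusted p = 0.0411). mt-Nd5 was at -1.12 and mt-Cytb at -0.99 log2, both with an edgeR adjusted p of 0.0411. Of 77 messengers encoded in the nucleus for the same respiratory chain 0 were called by edgeR, DESeq2 or limma-voom, 6 had an unadjusted p under 0.05 in edgeR, and the median was -0.013. Within genotypes their medians were -0.06 in wild type, -0.25 in haploinsufficient and 0.28 log2 in triple-knockout hearts, again with 0 called by edgeR and with 5, 27 and 23 at an unadjusted p under 0.05. In whole hearts, fewer cells of a type, fewer mitochondria and less RNA per mitochondrion cannot be told apart. Nor can these be told from a difference in library preparation, since the labels do not say what the ID numbers stand for.

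The summed share of the mitochondrial messengers separated the sets in wild-type and haploinsufficient hearts and not in the triple knockout. The 13 messengers together took 0.389 to 0.591% of the counts with ID 1 to 12 and 0.267 to 0.351% with ID 19 to 30 in wild type, and 0.357 to 0.765% against 0.189 to 0.318% in haploinsufficient hearts, with no overlap in either. In the triple knockout they took 0.389 to 0.419% against 0.294 to 0.467%, and the sets overlapped. Single messengers could differ from the sum: for mt-Nd1 the sets overlapped in wild type (267 to 566 against 199 to 280 CPM) and haploinsufficient hearts (200 to 986 against 125 to 246 CPM) and were apart in the triple knockout (375 to 474 against 211 to 355 CPM). The sets also overlapped in wild type for mt-Nd4 and mt-Nd5. The median differences of the 13 were -1.45, -1.24 and 0.12 log2 in that order of genotypes, and the dependence on genotype passed the test for 1 of the 13, mt-Co3. The 2 mitochondrial ribosomal RNAs, which the depletion of ribosomal RNA also removes, together took 0.0327 to 0.0914% against 0.120 to 0.354% in wild type. There mt-Rnr2 was higher with ID 19 to 30, at 301 to 747 against 1154 to 3412 CPM. For mt-Rnr1 the sets overlapped in wild type, at 34.1 to 153 against 65.2 to 152 CPM. Within the other genotypes the sets overlapped for the summed share.

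Transfer RNAs of the mitochondrion differed between the sets in a way that depended on genotype. mt-Td, the mitochondrial transfer RNA for aspartate, is printed here as the called RNA with the largest decrease across genotypes, read from GENCODE M21 transcripts (GRCm38, mitochondrial genome, 6942 to 7011, plus strand, 70 bases), with the anticodon in capitals.
mt-Td: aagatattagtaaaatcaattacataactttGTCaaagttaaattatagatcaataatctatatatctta

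mt-Td ran from 21.8 to 52.3 CPM in wild type with ID 1 to 12 and from 0.323 to 0.738 CPM with ID 19 to 30, the latter near the level of 3 counts. In haploinsufficient hearts it ran from 28.7 to 97.3 CPM and from 1.33 to 10.3 CPM. In the triple knockout the order was not seen, with 2.48 to 7.55 CPM against 2.69 to 12.6 CPM. The difference across genotypes was -3.22 ± 0.62 log2 (SE, edgeR adjusted p = 0.0376). Within genotypes it was -5.99 in wild type (edgeR adjusted p = 6.74e-06), -4.11 in haploinsufficient (adjusted p = 0.000163) and 0.50 in triple-knockout hearts (adjusted p = 0.952), and the test that these differ gave an edgeR adjusted p of 0.000869. Of 20 mitochondrial ribosomal and transfer RNAs tested, mt-Td was the 1 called across genotypes. The median of the 20 was -1.62 in wild type, -1.06 in haploinsufficient and 0.88 log2 in triple-knockout hearts, where all 20 were positive.

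**Figure D2:**
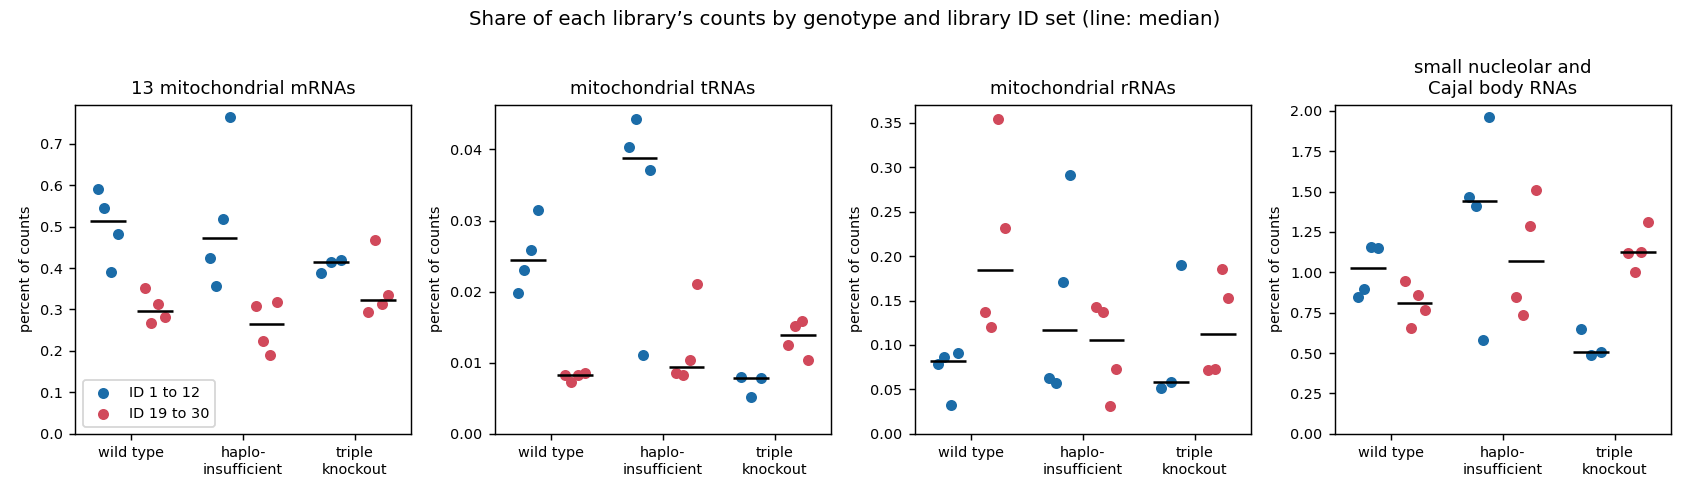
Share of each library's counts (percent) taken by the 13 mitochondrial messengers, the mitochondrial transfer RNAs, the mitochondrial ribosomal RNAs and the small nucleolar and Cajal body RNAs, by genotype, with ID 1 to 12 in blue and ID 19 to 30 in red; points are libraries and lines are medians. In the triple knockout the small nucleolar share was 0.489 to 0.650% with ID 1 to 12 and 1.00 to 1.31% with ID 19 to 30, while in wild type it was 0.849 to 1.16% and 0.658 to 0.944%.

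Within each genotype the sets were then compared in 1 fit with a coefficient for every genotype and set. In wild-type hearts 31 genes were called (0.222%), 10 higher (0.0717%) and 21 lower (0.151%). In haploinsufficient hearts 5 were called (0.0359%), 2 higher (0.0143%) and 3 lower (0.0215%). In triple-knockout hearts 11 were called, all higher (0.0789%), and 0 lower, where 363 genes were lower at an unadjusted p under 0.05 and DESeq2 called 2. Of the 27 genes called across genotypes, 8 were called in wild type, 3 in haploinsufficient and 0 in triple-knockout hearts. At an unadjusted p under 0.05 there were 1159, 1698 and 832 genes (8.31%, 12.2% and 5.97%). By direction these were 4.78% higher and 3.54% lower in wild type, 5.78% and 6.4% in haploinsufficient, and 3.36% and 2.6% in triple-knockout hearts. Genes named from these comparisons outside the lists were chosen after their values were seen.

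In wild type the lower genes were mainly mitochondrial and small RNAs. Among the 21 were 10 mitochondrial genes and 5 RNAs of the small nucleolar list, beside 33 and 77 of the 13942 genes tested. Besides mt-Td these included the transfer RNAs mt-Tg (-3.79 log2), mt-Tv (-3.50), mt-Te (-2.90) and mt-Tn (-2.10), the messengers mt-Nd4 (-1.89), mt-Nd2 (-1.87), mt-Nd5 (-1.72), mt-Nd3 (-1.65) and mt-Cytb (-1.56), and Snora75 (-4.18), Snord34 (-3.12), Snord69 (-2.97), Snora31 (-2.91) and Snora62 (-2.03). Snora62 stood at 14.2 to 20.6 CPM with ID 1 to 12 and at 2.41 to 7.64 CPM with ID 19 to 30. Afp, the alpha-fetoprotein gene of liver and yolk sac, was lower as well, at 2.82 to 17.6 CPM against 0 to 0.738 CPM (-3.98 log2, edgeR adjusted p = 0.0174). Rprl3, a relative of the RNase P RNA, was lower (-2.67 log2), but its near-identical copies can take each other's reads and the value is uncertain. Grk4 (-1.63), Psg28 (-2.34), the transporter gene Slc6a18 (-3.23) and AF357426 (-4.42), of 67 bases and without a type in the annotation used, complete the 21. For Slc6a18 the sets overlapped in wild type, at 1.22 to 20.9 against 0.369 to 1.84 CPM. Wild-type replicate 2, the library that stood apart in genes detected, held the highest value of Grk4, Psg28 and Slc6a18. Among the higher genes were Tmem38b, Eln (1.42), the tetraspanin gene Cd9 (1.37), the stress phosphatase subunit gene Ppp1r15a (1.16), the sarcoglycan gene Sgcb (0.75), the ubiquitin gene Ubb (0.63), Banf1 (0.62), Pnn (0.56) and Arl2bp (0.47). Cd9 stood at 4.2 to 16.5 CPM with ID 1 to 12 and at 21.1 to 25.5 CPM with ID 19 to 30. The count of 31 became 16 without wild-type replicate 1, 14 without replicate 2, 59 without replicate 4, 8 without replicate 5, 2 without replicate 6, 14 without replicate 7 and 8 without replicate 8.

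In haploinsufficient hearts the 5 genes were mt-Td, mt-Tv (-3.23 log2), mt-Nd5 (-1.50), Ptdss2 (0.96) and Tonsl (1.07), a DNA replication and repair gene. Tonsl ran from 8.17 to 21.5 CPM with ID 1 to 12 and from 29.7 to 49.3 CPM with ID 19 to 30, with no overlap. The count became 3 without replicate 1, 86 without replicate 3, 2 without replicate 4, 10 without replicate 5, 1 without replicate 6, 3 without replicate 7 and 11 without replicate 8. Without replicates 2, 4 and 6 together edgeR called 0, with 1393 genes at an unadjusted p under 0.05. Replicate 3 differed from the other haploinsufficient libraries of its set in small RNAs: small nucleolar and Cajal body RNAs took 0.580% of its counts against 1.41 to 1.96% in replicates 1, 2 and 4. It held 28.7 CPM of mt-Td against 84.6 to 97.3 CPM in those libraries.

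In triple-knockout hearts the genes higher with ID 19 to 30 were short noncoding RNAs. Of the 11 genes, 7 were small nucleolar or Cajal body RNAs and 9 were at most 200 bases long, a length shared by 105 of the 13942 genes tested. Small nucleolar RNAs are of a pair of kinds: those with H and ACA boxes guide the turning of uridine into pseudouridine, and those with C and D boxes guide methylation of the ribose. A pair of each kind among the called genes is shown with the box letters in capitals, ANANNA and ACA for the former and TGATGA and CTGA for the latter, searched on the RNA strand near the middle and the 3′ end or near both ends. The same search found both boxes in 87.5% of 40 annotated Snora genes and 68.4% of 98 annotated Snord genes. The sequences are GENCODE M21 transcripts (GRCm38): Snora52 at chr7:141448803-141448939, plus strand, Snora33 at chr10:23785347-23785475, minus strand, Snord8 at chr14:52209785-52209894, minus strand, and Snord67 at chr2:91596070-91596180, plus strand.
Snora52: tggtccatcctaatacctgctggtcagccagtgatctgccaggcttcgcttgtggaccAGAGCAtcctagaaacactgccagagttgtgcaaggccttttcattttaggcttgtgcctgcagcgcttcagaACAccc
Snora33: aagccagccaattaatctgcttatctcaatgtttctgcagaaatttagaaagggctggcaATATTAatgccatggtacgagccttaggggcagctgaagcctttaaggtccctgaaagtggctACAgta
Snord8: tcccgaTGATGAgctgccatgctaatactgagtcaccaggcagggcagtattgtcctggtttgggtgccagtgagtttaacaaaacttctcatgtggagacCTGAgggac
Snord67: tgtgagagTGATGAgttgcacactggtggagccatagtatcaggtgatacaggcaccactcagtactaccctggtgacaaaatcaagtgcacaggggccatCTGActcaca

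Snora52 stood at 26.4, 31.5 and 37.5 CPM in the triple-knockout libraries with ID 1 to 12 and at 103 to 131 CPM in those with ID 19 to 30 (1.93 ± 0.34 log2, SE, edgeR adjusted p = 0.0178). Snora33 stood at 9.22 to 14.2 against 40.2 to 67.7 CPM (2.15 log2, edgeR adjusted p = 0.0178). Snord8 stood at 52.3 to 70.3 against 161 to 168 CPM (1.37 log2, edgeR adjusted p = 0.0241) and Snord67 at 9.49 to 16.9 against 28.2 to 51.7 CPM (1.52 log2, edgeR adjusted p = 0.0325). No triple-knockout library of one set reached into the other for these 4 RNAs. The other 3 were Scarna8 (2.1), Snora7a (1.72) and Snora15 (1.72). Rnu12, the U12 RNA of the minor spliceosome, stood at 2784 to 3569 against 10240 to 12418 CPM (1.91 log2, edgeR adjusted p = 0.0460), and the microRNA gene Mir1983 was at 1.68. The remaining genes were C5ar2 (1.81), a complement receptor gene, and 2900060B14Rik (1.49). Exons of these genes hold annotated spliceosomal RNA copies, Gm26473 and Gm22710, so their counts need not be those of the gene itself. The count of 11 became 0 without triple-knockout replicate 1, 3, 4 or 6, 1 without replicate 2 and 32 without replicate 7. At an unadjusted p under 0.05 edgeR had 537, 732, 468 and 683 genes without replicate 1, 3, 4 and 6. Without haploinsufficient replicates 2, 4 and 6, which share the estimate of the spread, it was 34, with the same 11 genes among them.

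As a class, 77 small nucleolar and Cajal body RNAs were tested. Across the genotypes 0 were called by edgeR or limma-voom and 2 by DESeq2 (Snord34 and Snord123, chosen after their values were seen), 10 had an unadjusted p under 0.05 and the median difference was 0.043 log2. Within the triple knockout 7 of 77 were called higher, beside 11 of 13942 genes tested (0.0789%), and 56 were higher at an unadjusted p under 0.05, beside 469 of 13942 (3.36%). There 76 of 77 were positive and the median was 1.4 log2, against -0.001 over all genes tested. Within wild-type and haploinsufficient hearts 4 of 77 were positive in each, and the medians were -0.51 and -0.47. The class took 0.489 to 0.650% of the counts in the triple-knockout libraries with ID 1 to 12 and 1.00 to 1.31% in those with ID 19 to 30. In wild type it took 0.849 to 1.16% and 0.658 to 0.944%, and in haploinsufficient hearts 0.580 to 1.96% and 0.735 to 1.51%. Sequencing depth varied as well, and the total counts of the sets overlapped in every genotype. They ran from 6858863 to 13864731 and from 6657734 to 9407794 in the triple knockout. In wild type they ran from 3838166 to 7583066 and from 4912872 to 14050559. In haploinsufficient hearts they ran from 1757257 to 4543736 and from 4434317 to 11025358. The part of depth in the result was not tested.

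**Figure D3:**
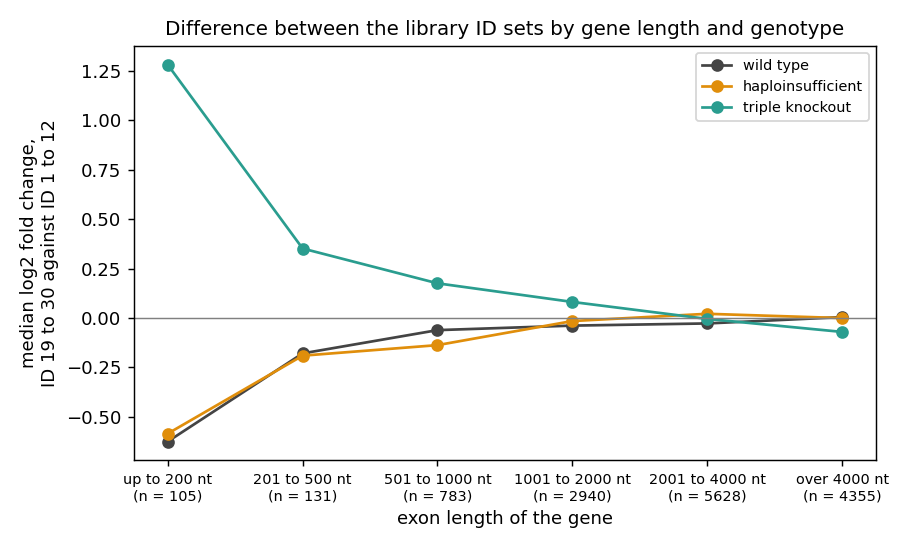
Median log2 fold change between the ID sets (vertical axis) within each genotype (colours) for genes grouped by exon length (horizontal axis, with the number of genes tested in each group). Genes of at most 200 bases stood apart, at -0.63 in wild type, -0.59 in haploinsufficient and 1.28 in triple-knockout hearts, while the medians of genes over 1000 bases lay within 0.1 of 0.

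Among genes of up to 1000 bases the median difference between the sets ran with gene length, in opposite directions by genotype. The 105 genes of at most 200 bases had median differences of -0.63, -0.59 and 1.28 log2 in wild-type, haploinsufficient and triple-knockout hearts, and -0.006 across genotypes. The 131 genes over 200 and up to 500 bases had -0.18, -0.19 and 0.35, and the 783 genes over 500 and up to 1000 bases had -0.06, -0.14 and 0.18. Among the 4355 genes over 4000 bases the medians were 0.004, -0.001 and -0.07. The order of the genotypes was the reverse of that among the shortest genes, but the medians of the longest genes lay near 0. When genes were divided by GC content into 5 classes of 2769, the class with the least GC had a median of -0.07 across genotypes and the class with the most 0.01. Of the 8 lower genes 6 were in the former. These were Stt3a and the mitochondrial RNAs mt-Td, mt-Nd1, mt-Nd4, mt-Nd5 and mt-Cytb, so the count is not separate from the mitochondrial result.

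Whether the difference between the sets depended on genotype was tested in a fit with interaction terms. It did for 19 of 13942 genes (0.136%), with 1340 at an unadjusted p under 0.05. Of these 19 genes, 14 were at most 200 bases long, 10 were small nucleolar or Cajal body RNAs and 4 were mitochondrial, beside 105, 77 and 33 of all genes tested. In 18 of the 19 the difference was positive in the triple knockout and negative in both other genotypes. The exception was Fabp4, a fatty acid binding protein gene of fat cells and capillary endothelium. Fabp4 stood at 9.04 to 28.7 CPM with ID 1 to 12 and 30 to 57.5 CPM with ID 19 to 30 in wild type, and at 20.7 to 60.5 against 11.9 to 16.5 CPM in haploinsufficient hearts, without overlap and in opposite directions (interaction, edgeR adjusted p = 0.0265). In the triple knockout it stood at 16.8 to 28.9 against 18.0 to 39.1 CPM. Within a genotype it did not pass the test, with edgeR adjusted p = 0.157, 0.0861 and 0.913. Among the mitochondrial genes mt-Co3, a subunit of complex IV, stood at 347 to 423 against 149 to 190 CPM in wild type and at 132 to 211 against 216 to 524 CPM in the triple knockout (interaction, edgeR adjusted p = 0.0432).

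**Figure D4:**
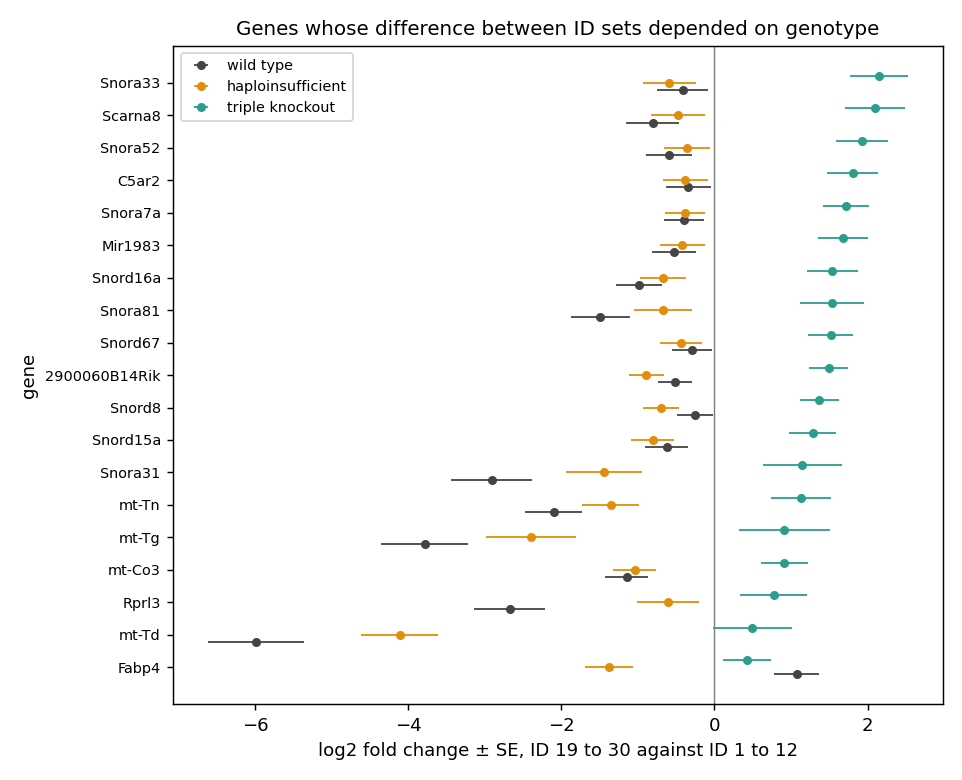
Log2 fold change between the ID sets with its standard error (horizontal axis) within each genotype (colours) for the 19 genes whose difference depended on genotype by the edgeR interaction test. In 18 genes the triple-knockout value is positive and the other values are negative, and Fabp4 is the exception.

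The count of genotype-dependent genes moved with libraries of every genotype. It became 6 without haploinsufficient replicates 2, 4 and 6 together, all among the 19. Leaving out single libraries gave 12 without wild-type replicate 1 or 2, 10 without replicate 4 or 6, 9 without replicate 5 or 7 and 11 without replicate 8. It gave 12 without haploinsufficient replicate 1, 10 without replicate 2, 96 without replicate 3, 29 without replicate 6 and 44 without replicate 8. It gave 11 without triple-knockout replicate 1 or 5, 2 without replicate 2, 3 or 4, and 55 without replicate 7. Across all 13942 genes the differences between the sets in one genotype said little of those in another. The correlation across genes, which are not independent replicates, was 0.116 between wild-type and haploinsufficient hearts, -0.004 between wild type and triple knockout, and -0.148 between haploinsufficient and triple-knockout hearts (Pearson's r).

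Apart from Eln among the cushion and valve genes, no gene on the lists for heart muscle and other heart cells passed the test across genotypes. In 10 lists of atrial, ventricular, sarcomere, calcium handling, maturation, conduction, outflow tract, endothelial, epicardial and smooth muscle genes, 183 different genes were tested and 0 were called by edgeR, DESeq2 or limma-voom, with 10 members at an unadjusted p under 0.05 when genes in several lists count each time. With such repeats the lists held 195 members, and 8.59% of all genes tested were under that p. The medians of the 10 lists across genotypes lay between -0.08 and 0.06 log2. Within genotypes some leaned in opposite directions. The 14 outflow tract and great vessel genes had medians of -0.12 in wild type, 0.61 in haploinsufficient and -0.76 in triple-knockout hearts, with 6, 12 and 1 of them positive. Haploinsufficient libraries with ID 19 to 30 were not alike here. Outflow tract genes took 0.0292 and 0.0244% of the counts in replicates 7 and 8, and 0.0191 and 0.0207% in replicates 5 and 6. Sarcomere genes took 5.51 and 6.49% in replicates 7 and 8, and 10.6 and 10.8% in replicates 5 and 6. The 16 pacemaker and atrioventricular canal genes had -0.13, 0.36 and -0.53, with 6 higher in haploinsufficient and 4 lower in triple-knockout hearts at an unadjusted p under 0.05. The 30 sarcomere genes had 0.04, -0.12 and 0.35, with 28 positive in the triple knockout and 7 higher there at an unadjusted p under 0.05. At that p, 5.78% of all genes tested were higher in haploinsufficient hearts, and 3.36% were higher and 2.6% lower in the triple knockout. By edgeR the difference between the sets depended on genotype for 1 of 27 endothelial and endocardial genes and for 0 genes of the other lists. Of the sarcomere genes, Myh7, the slow myosin heavy chain of fetal ventricle, was at 0.39 ± 0.17 log2 (edgeR adjusted p = 0.508) and Tnnt2 at 0.25 ± 0.12 (edgeR adjusted p = 0.560). In 9 lists of genes that respond to handling, time of day or cell state (immediate early, heat shock, hypoxia, glucocorticoid, circadian clock, p53, interferon, S phase and mitosis), 190 different genes were tested. By edgeR and limma-voom 0 were called, and DESeq2 called 2, Hsp90ab1 and Bax, chosen after their values were seen. In edgeR 20 of 192 members, counting repeats, had an unadjusted p under 0.05, beside 8.59% of all genes tested. The medians lay between -0.06 and 0.04. The S phase gene Uhrf1 was at 0.22 ± 0.07 log2 (edgeR adjusted p = 0.308).

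**Figure D5:**
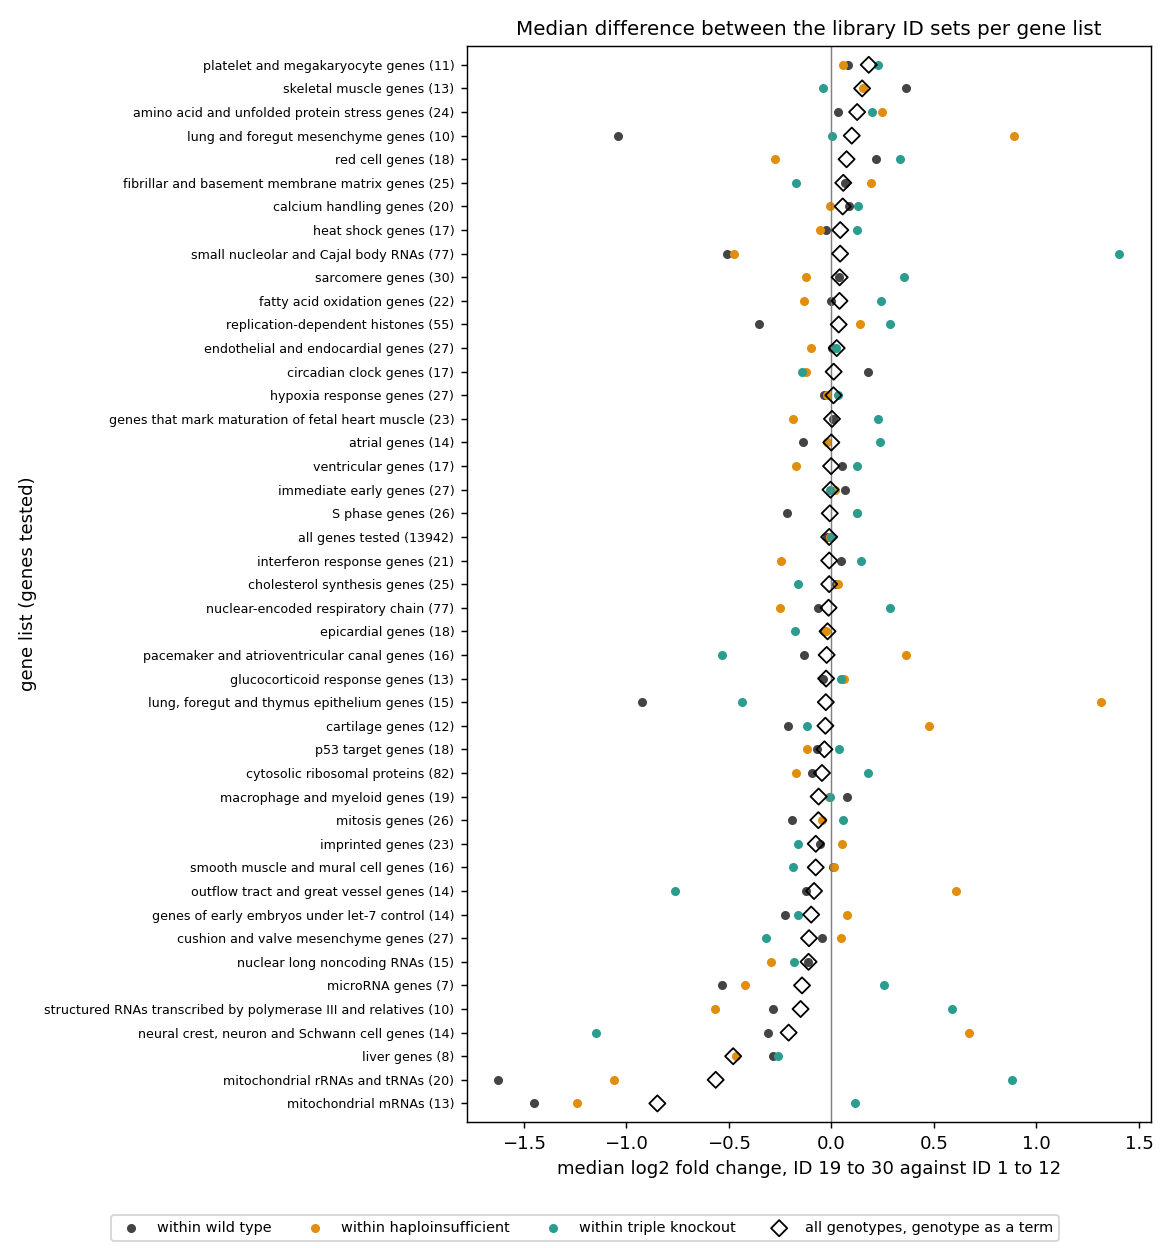
Median log2 fold change between the ID sets (horizontal axis) for 44 gene lists and for all genes tested (vertical axis, number of genes tested in brackets), across genotypes (open diamonds) and within each genotype (coloured points). The mitochondrial lists lie lowest across genotypes, and the small nucleolar list has 1.4 in the triple knockout beside -0.51 and -0.47 in the other genotypes.

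Further lists leaned to one side without calls in edgeR across genotypes. Of 24 genes of the response to amino acid shortage and unfolded proteins 22 were positive, with 0 called by edgeR, DESeq2 or limma-voom, 7 at an unadjusted p under 0.05 and a median of 0.13 log2. The chaperone cofactor gene Sdf2l1 was at 0.41 ± 0.11 log2, at 16.4 against 21.4 CPM on average (edgeR adjusted p = 0.177), and the transcription factor gene Atf5 at 0.35 ± 0.11 (edgeR adjusted p = 0.270). All 8 liver genes tested were negative, with a median of -0.48, 0 called by edgeR and 1, Afp, by DESeq2 and by limma-voom, and 3 at an unadjusted p under 0.05. Afp led them, at 5.00 against 1.05 CPM on average (-2.36 ± 0.54 log2, edgeR adjusted p = 0.0631), and Alb was at 9.15 against 5.49 CPM (edgeR adjusted p = 0.490). Liver genes together took 0.00425 to 0.00745% of the counts with ID 1 to 12 and 0.00314 to 0.00722% with ID 19 to 30. Markers of lung, foregut and thymus epithelium, tissues beside the heart, took 0.0159 to 0.0366% and 0.0172 to 0.0498%. They had medians of -0.92 in wild type, 1.31 in haploinsufficient and -0.43 log2 in triple-knockout hearts, and 0 of 15 were called across genotypes by edgeR, DESeq2 or limma-voom, with 1 at an unadjusted p under 0.05. Among haploinsufficient libraries with ID 19 to 30, replicates 7 and 8 held 0.0498 and 0.0457% of these markers. Replicates 5 and 6 held 0.0211 and 0.0203%, within the 0.0181 to 0.0347% of haploinsufficient libraries with ID 1 to 12. The 14 genes of neural crest, neurons and Schwann cells had medians of -0.31 in wild type, 0.67 in haploinsufficient and -1.15 log2 in triple-knockout hearts, with 1, 12 and 0 of them positive and 0 called by edgeR. In triple-knockout hearts 6 were lower (beside 2.6% of all genes tested), and in haploinsufficient hearts 4 higher (beside 5.78%), at an unadjusted p under 0.05. They took 0.0284 to 0.0505% against 0.0221 to 0.0327% of the counts in the triple knockout, 0.0257 to 0.0267% against 0.0197 to 0.0210% in wild type and 0.0193 to 0.0243% against 0.0198 to 0.0267% in haploinsufficient hearts, with no overlap in wild type. Their part in the result was not tested. With the mean log2 CPM of the liver, lung, foregut and thymus markers as a term, 142 genes were called, 23 of them among the 27. The part of those tissues in the result was not tested further.

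The libraries themselves were compared by 5 measures, with exact permutation of the set labels within each genotype (171500 arrangements, two-sided) and adjustment over the 5. The share of counts on the 10 most counted genes was 12.4 ± 1.04% with ID 1 to 12 and 13.5 ± 0.81% with ID 19 to 30 (SD, n = 11 and 12, exact permutation p = 0.00537, adjusted 0.0269). Within genotypes this share differed by 1.45 percentage points in wild type, 0.017 in haploinsufficient and 2.00 in triple-knockout hearts. Tmem38b, at 1592 against 13751 CPM on average, was not left out of this share. Its part in the difference was not tested. The share of counts on all mitochondrial genes was 0.611 ± 0.187% and 0.459 ± 0.112% (exact permutation p = 0.0214, adjusted 0.0415), and p rose to 0.0521 without haploinsufficient replicate 7 and was also above 0.05 without triple-knockout replicate 3. It differed by -0.0768 percentage points in wild type, -0.327 in haploinsufficient and -0.0279 in triple-knockout hearts. At the same depth, 15635 ± 800 and 15156 ± 361 genes were detected (exact permutation p = 0.0249, adjusted 0.0415), and without wild-type replicate 2 the difference of -478 genes within genotype became -290. The exact permutation p for genes detected rose to 0.0633 without wild-type replicate 7, and was also above 0.05 without wild-type replicate 8 or haploinsufficient replicate 6. Total count, on a log10 scale, differed by 0.133 (exact permutation p = 0.0962, adjusted 0.120). The slope of a library's levels on gene length did not separate the sets (-0.009, exact permutation p = 0.783), since it differed by 0.0438 and 0.0525 in wild-type and haploinsufficient hearts and by -0.124 in the triple knockout. Within these genotypes the exact permutation p was 0.2, 0.457 and 0.0571. The biological coefficient of variation, the spread between libraries of a genotype beyond counting, was 0.202 with ID 1 to 12 alone, 0.198 with ID 19 to 30 alone and 0.208 over both.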

How the data were processed

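Single-end reads of 50 bases from 23 libraries were aligned to mm10 with TopHat2 2.0.10 and Bowtie2 and counted with HTSeq, per the submitters' processing notes. The deposited table holds raw read counts per gene, and how reads shared by overlapping genes or copies were counted is not given in the sources used here. A second deposited table holds FPKM values, made with Cufflinks 2.1 per the submitters' processing notes, which were used for an alternative only (limma on log2(FPKM + 1) and log2(FPKM + 0.1)). Gene positions and lengths came from the deposited annotation, in which the authors added mitochondrial genes, Cre and single exons. Of 23512 features, 58 were such added features and were left out of the tests.

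Counts were tested with edgeR 4.0.16 (R 4.3.3): TMM factors, the filterByExpr filter (minimum count 10, minimum total 15) and the quasi-likelihood test, with Benjamini-Hochberg adjustment over 13942 genes and a threshold of 0.05. ID set and genotype were terms for the comparison across genotypes. A coefficient per genotype and set gave the differences within genotypes, and interaction terms tested whether they differed. All 23 libraries entered each fit. Levels (CPM) are counts scaled to a common library size with TMM factors, and shares are percent of unscaled counts. limma 3.58.1, DESeq2 1.42.0, other scalings and filters, further terms and leaving out each library were alternatives, and those involving haploinsufficient replicates 2, 4 and 6 together, the small nucleolar share, the unfiltered fits within genotypes and the interaction fits with a library left out were chosen after seeing the data. Exact permutation used Python 3.11.15. On simulated counts for the comparison of the ID sets over 13942 genes, edgeR recovered 3 of 50 genes changed 1.25-fold, 35 of 50 changed 1.5-fold, 45 of 50 changed 2-fold and 49 of 50 changed 3-fold. The changed genes averaged at least 1 log2 CPM and changed alike in every genotype. Recovery of scarcer genes, or of differences that depend on genotype, was not simulated. No 2 libraries agreed within sampling noise (lowest chi-square per degree of freedom 5.20).

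Genes named from the comparison across genotypes had to be called and to average 1 log2 CPM or more, and were the 12 highest, the 12 lowest and the 6 smallest p in each direction, and up to 4 members with the smallest p from each list described. The sets and the gene lists were chosen with earlier results of these data known. A gene called within wild type is counted but not reported here by name.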

Additional observations from a re-analysis of the deposited data

Results flagged for a closer look

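Within groups of 4 libraries of one genotype and set, a library far from the other three by Dixon's criterion was found in 16 of 170 groups of values, where chance gives about 1 in 20, or 8.5. Tmem38b was at 44509 CPM in wild-type replicate 8, against 8690 to 13158 CPM in the others of its set, and at 28334.5 CPM in haploinsufficient replicate 7, against 4528 to 8453 CPM. Grk4 was at 206 CPM in wild-type replicate 2, against 37.5 to 60.3 CPM, and 17850 genes were detected in that library, against 15364 to 15760. Eln was at 515 CPM in haploinsufficient replicate 3, against 267 to 308 CPM. Wild-type replicate 1 was low for Polr2e (22.1 CPM), Wbscr16 (21.4 CPM) and D4Wsu53e (63.7 CPM). Triple-knockout replicate 7 was low for Oraov1 (19.3 CPM) and Pmpca (78.4 CPM). Single libraries stood apart for Nudt16l1 (23.9 CPM in haploinsufficient replicate 6), Dnttip1 (29.4 CPM in haploinsufficient replicate 7), Wbscr16 (34.8 CPM in wild-type replicate 7) and Pmpca (105 CPM in haploinsufficient replicate 5). The 10 most counted genes took 12% of the counts of haploinsufficient replicate 1 and 12.4% of those of replicate 8, below the other libraries of their sets.

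The difference between the sets differed between genotypes, by edgeR's interaction test, for 19 genes. The adjusted p was 0.000869 for mt-Td and 0.00347 for 2900060B14Rik. It was 0.0195 for Snord8, mt-Tn, Snora52, Snora7a, Snord16a, Scarna8 and Snora33, 0.0265 for Fabp4, 0.0309 for mt-Tg, 0.0395 for Mir1983 and 0.0417 for C5ar2. It was 0.0432 for Snora31, mt-Co3 and Snord15a, and 0.0436 for Snora81, Snord67 and Rprl3.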

How the results depend on the processing

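The count of 27 genes was 12 with upper quartile factors, 5 with total counts, 75 without a filter, 13 with a sex term, 0 with log2 total count as a term, 142 with the liver, lung, foregut and thymus markers as a term, 125 with the small nucleolar share as a term, 16 after thinning, 80 with DESeq2, 3 without the 3 haploinsufficient libraries that stand apart, and 1 with limma on log2 FPKM at either pseudocount. With 1 library left out it ran from 0 to 60.

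Within wild type the count of 31 was 108 without a filter, 73 with that genotype alone in the fit and 93 with DESeq2, and it ran from 2 to 59 with 1 library left out. Within haploinsufficient hearts the count of 5 was 40, 3 and 57, was 0 without the 3 libraries and ran from 1 to 86. Within the triple knockout the count of 11 was 46, 51 and 37, was 34 without the 3 libraries and ran from 0 to 32. The count of 19 genotype-dependent genes was 94 without a filter, 73 with DESeq2's likelihood ratio test and 6 without the 3 libraries, and ran from 2 to 96.

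With 1 library left out, the set difference ran from 0.102 to 0.163 for log10 total count, from -566 to -290 for genes detected, from -0.170 to -0.0997 for the mitochondrial percent and from 0.954 to 1.35 for the percent on 10 genes. Unadjusted exact permutation p passed above 0.05 in 1 or more of these for genes detected (up to 0.0633) and the mitochondrial percent (up to 0.0521), and fell below it for total count (down to 0.0468). For the length slope it ran from -0.0223 to 0.0100, changing sign without haploinsufficient replicate 3. The cause of these changes was not tested. No paired analysis was possible because the sets share fewer than 2 replicate numbers within a genotype. Depth limits genes near 3 counts, which is 1.71 CPM in the shallowest library.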
